A study of Mus musculus with 8 samples.

Results

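*Npb* and *Npw*, the genes of the precursors of neuropeptide B and neuropeptide W, and *Npbwr1*, the gene of the receptor that binds both peptides, were followed through 4 nuclei of the mouse hypothalamus. The nuclei were the arcuate nucleus (Arc), the ventromedial hypothalamus (VMH), the dorsomedial hypothalamus (DMH), and the lateral hypothalamus (LH). These are 3 of the 20284 genes that could be named on the array, and 5 probes reported them: 3 for *Npb*, 1 for *Npw*, and 1 for *Npbwr1*. The probes were found by matching the RefSeq accessions in the scanner files to the gene symbols. The 3 genes were selected from earlier results of the same 8 arrays, so their levels are given as a description, without a test. In 1 nucleus or more, both arrays measured each of the 5 probes well above background, and no probe was left out.

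The arrays were made to search for genes expressed selectively in single nuclei. All 4 groups held the same kind of animal, females of the strain C57BL/6 (C57BL/6J in the methods) at 3 months of age, and no treatment or altered allele was named for any of them. The tissue of 2 mice was cut out by laser, the RNA was amplified as a whole transcriptome, and 2 arrays were hybridized per nucleus. Nothing states which arrays share a mouse, so any p-value below measures the spread between the 2 arrays of a nucleus. Signals were scaled by the 75th percentile of the array, and the result is called the scaled signal here. It can be compared between nuclei for the same probe, but not between different probes. Each value comes from the mixed tissue of a nucleus, in which fewer cells that express a gene and less RNA in each of those cells cannot be told apart.

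Neuropeptides B and W are short peptides cut from precursor proteins, and both activate NPBWR1, also known as GPR7. This receptor couples to the inhibitory G proteins Gi and Go, which lower cyclic AMP and open potassium channels, and by sequence it is a relative of the opioid and somatostatin receptors. Mice and rats lack the second receptor for these peptides that humans have. The system is known for its part in feeding, energy balance, and responses to stress.

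On the arrays, 47.1% to 52.7% of the 59305 spots were well above background, and replicate arrays correlated at 0.981 (Arc), 0.978 (VMH), 0.971 (DMH), and 0.938 (LH). The second LH array correlated more with the second DMH array (0.954) than with the first LH array, and the part of this in the shared DMH and LH signal of *Npb* was not tested. Each nucleus had the highest summed signal of its own markers (*Agrp*, *Npy*, *Pomc*, *Kiss1*, and *Ghrh* for the Arc, *Nr5a1*, *Fezf1*, and *Adcyap1* for the VMH, *Prdm13*, *Npvf*, and *Grp* for the DMH, *Hcrt* and *Pmch* for the LH). The authors chose the 3 DMH markers from these same arrays for their high DMH signal, so their place there was fixed in advance. The DMH and the LH also shared markers. The sum of the 2 LH markers was 72193 and 62915 on the DMH arrays, against 123621 and 133755 on the LH arrays, 4623 and 3415 on the VMH arrays, and 286 and 312 on the Arc arrays. The sum of the 3 DMH markers was 8377 and 11001 on the DMH arrays, 923 on the first LH array, and 89.5 on the second, on which none of the 3 was well above background. The 6 oligodendrocyte markers summed to 103218 and 106773 in the LH and to between 11760 and 38776 elsewhere. All 6 were highest in the LH. The 3 tested of 4 endothelial markers summed to 4376 and 5485 in the LH, 2776 and 3530 in the DMH, and between 1932 and 2519 in the Arc and the VMH, and each of the 3 had its highest mean in the LH and the next in the DMH. The other lists were divided within themselves, and the genes named from them were chosen after their values were seen. The 5 astrocyte markers summed to 54437 and 53764 in the LH, 36532 and 36063 in the DMH, and between 26678 and 35270 in the Arc and the VMH. *Slc1a2* was the brightest of them and highest in the LH, at 31085 (limma F-test, adjusted p = 0.0358). *Gfap*, in contrast, was highest in the Arc, at a mean of 5036 against 1256 (VMH), 2251 (DMH), and 2761 (LH) (limma F-test, adjusted p = 0.0308). The F-test was passed by 8.34% of all tested probes and by none of the 5 microglia markers. Of these markers, 3 had their highest mean in the LH, while *Csf1r* had it in the VMH and *C1qa* in the Arc. Of the 3 tested of 5 markers of ependymal cells and tanycytes, *Rax* was highest in the Arc (adjusted p = 0.0123) and the others did not pass. The 4 neuron markers summed to 143067 and 123578 in the VMH, 91227 and 91055 in the Arc, 96221 and 102563 in the DMH, and 103684 on the second LH array, while the first LH array had no sum because the *Stmn2* spot was left out there. Of the 4, *Rbfox3* passed and was highest in the VMH (11474) and lowest in the Arc (3169), with an adjusted p of 0.0186. None of the 5 markers of the anterior pituitary was measured in any nucleus.

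*Npb* was high in the DMH and the LH and low in the Arc and the VMH with each of its 3 probes. Probe A_55_P1952071 was the only one of the 3 measured on all 8 arrays. Its scaled signals were 445 and 761 in the DMH and 534 and 925 in the LH, against 183 and 162 in the Arc and 189 and 152 in the VMH. The 4 DMH and LH arrays thus all lay above the 4 Arc and VMH arrays, while within each of these pairs of nuclei the arrays overlapped. The DMH mean of 603 ± 223 (SD, n = 2) was 3.49 times the Arc mean of 173 ± 14.7 and 3.54 times the VMH mean of 171 ± 26.7. The LH mean of 730 ± 277 was 4.22 times the Arc mean and 4.28 times the VMH mean. On the log2 scale, Arc minus DMH was -1.76 ± 0.36 and Arc minus LH was -2.03 ± 0.36 (SE of the limma fit).

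The other probes of *Npb* showed the same division with wider gaps. With probe A_55_P1952076, the signals were 475 and 641 in the DMH and 715 and 651 in the LH, while 66.9 and 29.7 in the Arc and 39.7 and 46.1 in the VMH were not well above background. With probe A_55_P1961089, the signals were 451 and 535 in the DMH and 685 and 602 in the LH, and 102 and 103 in the Arc and 76.7 and 72.7 in the VMH were again not well above background. *Npb* was therefore measured in the Arc and the VMH by 1 of its 3 probes, and the other probes give only a bound there. The bound is the mean of the bright nucleus over that of the dim nucleus, both taken as means of log2 values, after each dim array was raised to the lowest signal that was well above background on it. By A_55_P1952076, the DMH was thus at least 4.88-fold above the Arc and at least 5.31-fold above the VMH in *Npb*. The LH was at least 6.03-fold above the Arc and at least 6.57-fold above the VMH. The bounds of A_55_P1961089 were of the same order, with the DMH at least 4.30-fold above the Arc and at least 4.73-fold above the VMH, and the LH at least 5.63-fold and at least 6.18-fold above the same nuclei.

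The DMH and the LH were close in *Npb*. The mean of the LH was above that of the DMH with all 3 probes, with DMH minus LH of -0.27 ± 0.36, -0.31 ± 0.38, and -0.39 ± 0.20 on the log2 scale for A_55_P1952071, A_55_P1952076, and A_55_P1961089. For A_55_P1952071, the arrays of the DMH and the LH overlapped, and the sign of the difference turned without scaling between arrays, without the first DMH array, and without the second LH array. For A_55_P1952076, the sign turned only without scaling (0.02), and for A_55_P1961089 it kept its sign in all 16 alternatives (-0.51 to -0.07). Arc minus VMH of *Npb* was 0.03 ± 0.36 by A_55_P1952071, the probe that measured both, with a sign that turned in 4 of 17 alternatives. The order of *Npb* by A_55_P1952071 was hence LH and DMH, which did not differ beyond their spread, and then Arc and VMH, which did not either.

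**Figure D1:**
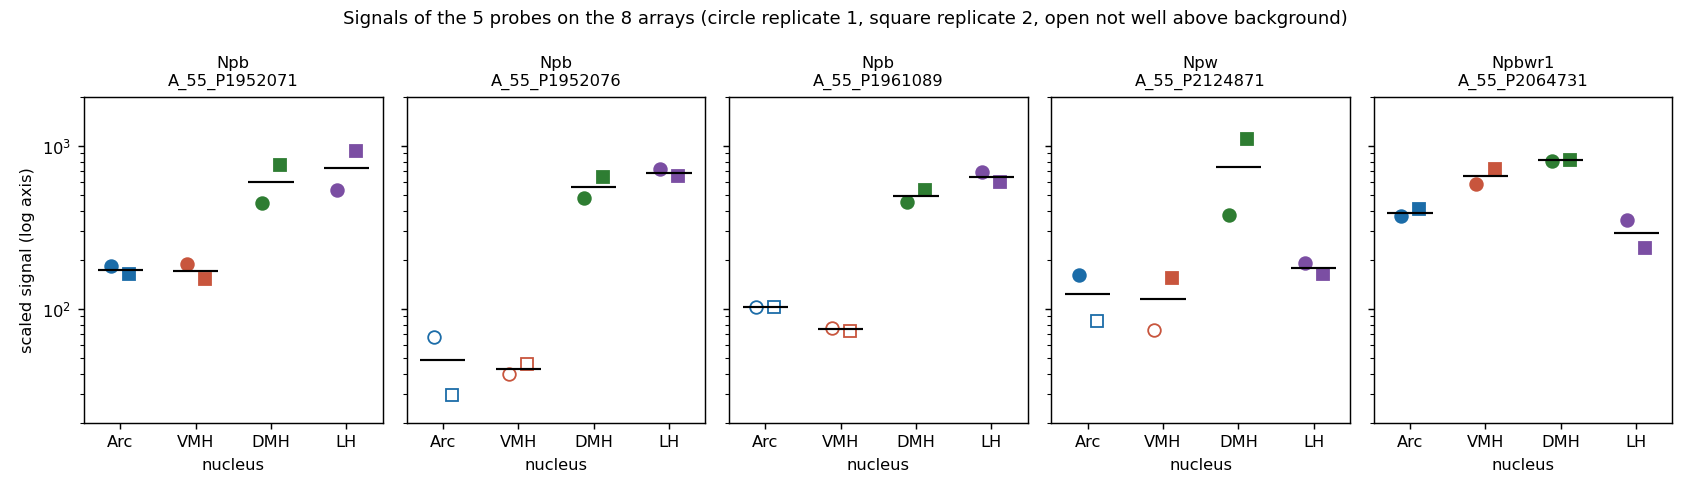
Scaled signal (log axis) of the 3 *Npb* probes, the *Npw* probe, and the *Npbwr1* probe in the Arc, VMH, DMH, and LH, with a circle for the first and a square for the second array of a nucleus, open symbols for signals not well above background, and a line at the mean of the 2 arrays. The DMH and LH arrays of *Npb* lie above its Arc and VMH arrays, the DMH arrays of *Npw* (376 and 1107) lie above its other 6, and *Npbwr1* is highest in the DMH (808 and 816) and lowest in the LH (348 and 237).

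*Npw* was high in the DMH and not in the LH. Its scaled signals were 376 and 1107 in the DMH, 192 and 163 in the LH, 161 and 84.0 in the Arc, and 74.6 and 155 in the VMH. Both DMH arrays lay above the other 6, the LH arrays lay above those of the Arc and the VMH, and the Arc and VMH arrays overlapped. The second Arc array and the first VMH array were not well above background, so *Npw* was measured on 6 of 8 arrays. The DMH mean of 742 ± 517 was 6.06 times the Arc mean of 122 ± 54.3, 6.45 times the VMH mean of 115 ± 57.1, and 4.17 times the LH mean of 178 ± 20.4. With the 2 unmeasured signals raised to the lowest one well above background on their arrays, Arc minus DMH was -2.17 in place of -2.47 on the log2 scale and VMH minus DMH was -2.23 in place of -2.58.

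The size of the *Npw* excess in the DMH rested on how the DMH arrays were weighed, because they differed 2.94-fold from each other, the widest gap within a nucleus among the 5 probes. On the log2 scale, the DMH was 2.31 ± 0.48 above the mean of the other 3 nuclei (SE of the fit). This difference was 3.09 without the first DMH array and 1.53 without the second. For comparison, the *Npb* probes differed by 1.35-fold, 1.19-fold, and 1.71-fold between the same DMH arrays, and *Npbwr1* by 1.01-fold. DMH minus LH was 1.87 ± 0.59 for *Npw* and stayed positive in all 16 alternatives, from 1.08 to 2.64. Arc minus LH was -0.61 ± 0.59 and VMH minus LH was -0.72 ± 0.59, about the size of the SE. Both kept their sign in all 16 alternatives (-1.08 to -0.14 and -1.25 to -0.19), and each includes 1 signal not well above background. Arc minus VMH was 0.11 ± 0.59 and turned its sign in 5 of 16 alternatives, so the Arc and the VMH, whose arrays overlapped, were not ordered beyond their spread.

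The receptor gene *Npbwr1* was measured on all 8 arrays and had a pattern of its own, highest in the DMH, next in the VMH, and lowest in the LH. Its scaled signals were 808 and 816 in the DMH, 584 and 718 in the VMH, 371 and 407 in the Arc, and 348 and 237 in the LH. The arrays of no pair of nuclei overlapped. The DMH mean of 812 ± 5.63 was 2.77 times the LH mean of 293 ± 78.5, 2.09 times the Arc mean of 389 ± 25.4, and 1.25 times the VMH mean of 651 ± 94.5. The range of the receptor probe was narrower than that of each ligand probe, for which the highest nucleus had more than 4 times the mean of the lowest. Such ranges also differed among the probes of *Npb*, so this is not read as a difference between the genes.

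Neighbours in the order of *Npbwr1* were close. On the log2 scale, VMH minus DMH was -0.33 ± 0.25 and Arc minus LH was 0.43 ± 0.25. The step between the Arc and the VMH was larger, with Arc minus VMH of -0.74 ± 0.25. DMH minus LH was 1.50 ± 0.25 and VMH minus LH was 1.17 ± 0.25. All 6 differences of *Npbwr1* kept their sign in 17 alternatives, among them VMH minus DMH (-0.54 to -0.18) and Arc minus LH (0.16 to 0.71). Some of the 17, such as the replicate block and the filters on dim probes, cannot change these differences.

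**Figure D2:**
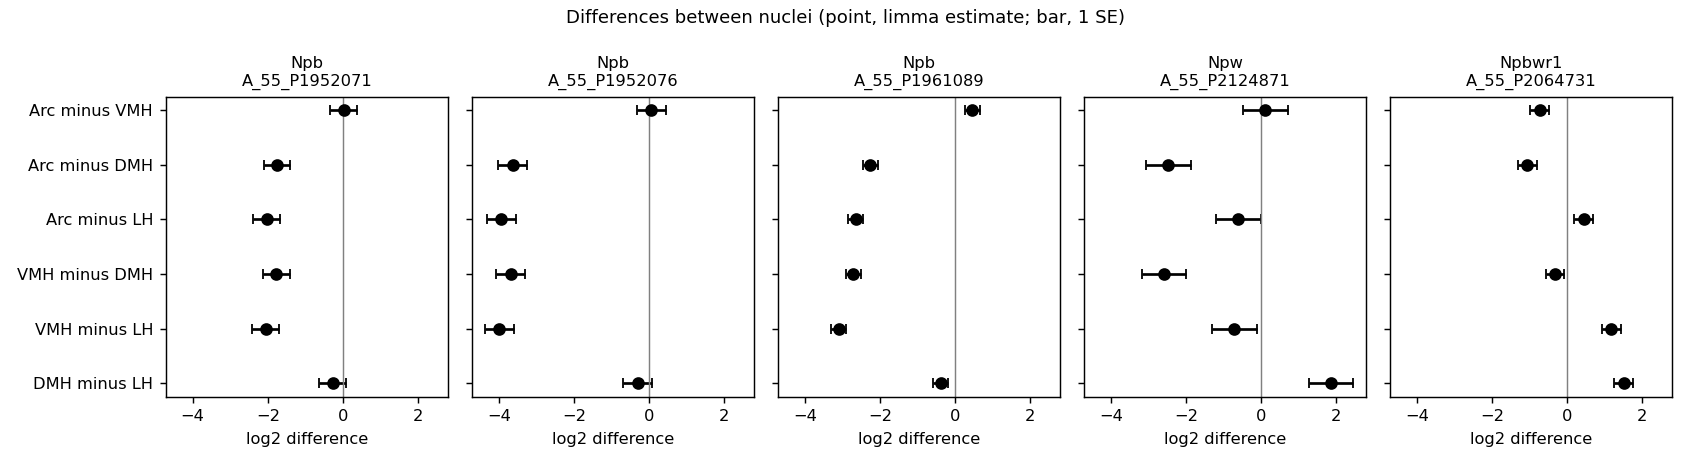
Differences of scaled signal between nuclei on the log2 scale for each of the 5 probes, as limma estimates (points) with 1 SE (bars) and a line at 0. Arc minus DMH and VMH minus DMH lie below 0 for all 5 probes, while DMH minus LH is near 0 for *Npb* (-0.27 to -0.39) and above 0 for *Npw* (1.87) and *Npbwr1* (1.50).

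Set side by side, the 3 genes met in the DMH. For *Npw* and *Npbwr1*, 2 of the 5 probes, the DMH arrays exceeded the 6 arrays from elsewhere, an order that 632 of the 28765 tested probes with a value on every array (2.2%) also showed. All 4 DMH and LH arrays were above all 4 Arc and VMH arrays for the 3 *Npb* probes and for *Npw*, against 911 (3.17%) of those probes. For *Npw* this order was narrow, with 163 on the second LH array against 161 on the first Arc array. Without scaling it was lost, with 141 on the second LH array against 195 on the second VMH array. *Npbwr1* was the gene of the 3 with all 4 DMH and VMH arrays above all 4 Arc and LH arrays, against 444 (1.54%). Nothing is read from these counts, since the genes had been picked with the levels on the same arrays in view. The LH had the ligand *Npb* at its highest mean and the receptor at its lowest. In the VMH, the nucleus with the second highest *Npbwr1* mean, *Npb* was not well above background with 2 of 3 probes, and the same held in the Arc.

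The 3 *Npb* probes followed each other over the 8 arrays, with Pearson's r of 0.954, 0.952, and 0.980 on the log2 scale, including signals not well above background. *Npb* with *Npw* gave r of 0.637 to 0.700, *Npw* with *Npbwr1* gave 0.476, and *Npb* with *Npbwr1* gave -0.184 to -0.0965. The points are pairs of arrays from 4 nuclei that share their tissue and amplification, so these values describe the shape over the nuclei only.

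Several values moved with these patterns. The LH markers and *Npb* were both high in the DMH and the LH. *Npw* was highest in the DMH, as were the 3 DMH markers, which had been chosen from these arrays for that. The second DMH array, which had the higher *Npw* signal, had the higher DMH marker sum (11001 against 8377) and the lower LH marker sum (62915 against 72193). From the first to the second DMH array, *Grp* rose from 2773 to 4548 and *Npvf* from 3943 to 4786, while *Prdm13* stayed level (1661 and 1667). All 3 *Npb* probes were brighter on the second DMH array (761 against 445, 641 against 475, and 535 against 451), opposite to the LH marker sum. The second LH array, on which no DMH marker was well above background, had an *Npw* signal of 163 against 192 on the first and an *Npbwr1* signal of 237 against 348. The sum of the endothelial markers had the order of *Npb*, with all 4 DMH and LH arrays above the 4 Arc and VMH arrays. The astrocyte sum had it narrowly, at 36063 on the second DMH array against 35270 on the second VMH array. Among the astrocyte markers, *Slc1a3* alone had both its DMH and its LH mean above the others. *Gfap* was highest in the Arc, *Slc1a2* and *Aldh1l1* were higher in the VMH than in the DMH, and *Aqp4* was higher in the Arc than in the DMH. The oligodendrocyte markers were highest in the LH, where *Npbwr1* was lowest. The sum of the neuron markers was highest in the VMH and lowest in the Arc over the 7 arrays that had one, and *Npbwr1* was likewise higher in the VMH than in the Arc. In the DMH, where *Npbwr1* was highest, the sum was lower than in the VMH, at 96221 and 102563. On the second LH array, where *Npbwr1* was lowest, it was 103684. *Rbfox3* and *Snap25* had their highest mean in the VMH, but *Syt1* had it in the LH (12074). The part of the dissected borders and of the cell mixture in the levels of *Npb*, *Npw*, and *Npbwr1* was not tested.

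The probes most like *Npb* over the 8 arrays were those of genes with high signals in the DMH and the LH. For A_55_P1952076 they were *Elavl2*, a neuronal RNA-binding protein (r = 0.991), *Nrn1*, the neurite growth factor neuritin (0.989), *Nxph4*, a neurexophilin (0.986), *Ebf3*, a transcription factor (0.984), and *Plch1*, a phospholipase C (0.983). For A_55_P1961089 they were *Nrn1* (0.995), *Nxph4* (0.995), *Plch1* (0.993), *C1ql3*, a secreted C1q-like protein (0.992), and *Trh*, the precursor of thyrotropin-releasing hormone (0.991). The 2 lists shared *Nrn1*, *Nxph4*, and *Plch1*, which is 3 of the 5 genes of each.

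For A_55_P1952071, whose signals on the second DMH and LH arrays exceeded those on the first, another set came out, led by 4 genes: *Lhx9*, a LIM homeobox transcription factor (0.987), *Rnd1*, a small GTPase (0.979), *Pde11a*, a phosphodiesterase (0.973), and *Nfia*, a transcription factor (0.971). As with *Npb*, the second array was also the brighter one in both nuclei for *Lhx9*, with 292 and 479 in the DMH and 374 and 861 in the LH. *Trh* showed the *Npb* pattern at a greater span, with 5586 and 9818 in the DMH and 6519 and 5690 in the LH, while 116 and 119 in the Arc and 45.5 and 43.8 in the VMH were not well above background.

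*Npw* and *Npbwr1* had few named companions. Of the 5 probes most like *Npw*, 4 had no gene symbol here and the other was *Gm4349* (r = 0.914), whose signals of 606 and 853 in the DMH, 496 and 608 in the LH, 537 and 495 in the Arc, and 387 and 530 in the VMH spanned less than those of *Npw*. Of the 5 most like *Npbwr1*, 3 had no symbol and the others were *Ltn1*, a ubiquitin ligase of ribosome quality control (0.968), and *Neurl4*, a member of the neuralized family (0.963). *Ltn1* had signals of 208 and 227 in the DMH, 190 and 210 in the VMH, 144 and 162 in the Arc, and 124 and 88.1 in the LH, where the second was not well above background. It so kept the order of the nuclei of *Npbwr1* over a smaller range, although its DMH and VMH arrays overlapped.

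In the RefSeq table of assembly GRCm38.p6, no annotated gene overlaps *Npb*, *Npw*, or *Npbwr1*, which matters because the amplified cDNA does not keep the strand of the RNA. *Npb* lies between *Anapc11*, a subunit of the anaphase-promoting complex, and *Pcyt2*, an enzyme of phosphatidylethanolamine synthesis. *Npw* lies between *Slc9a3r2*, a scaffold protein, and *Zfp598*, a ubiquitin ligase that acts on stalled ribosomes. Neither pair of neighbours shared the pattern of its neuropeptide gene. The means of *Pcyt2* were 5827 ± 22.1 (Arc), 8722 ± 485 (VMH), 6943 ± 78.3 (DMH), and 8651 ± 364 (LH). The means of *Zfp598* were 178 ± 31.4, 238 ± 21.5, 185 ± 51.8, and 285 ± 44.7 in the same order. Both probes of *Anapc11* and both of *Slc9a3r2* also lacked a high DMH, with 8556 ± 123 in the DMH against 8583 ± 367 in the Arc for the brighter probe of *Anapc11*.

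*Npbwr1* has *Oprk1*, the gene of the kappa opioid receptor, as its neighbour on one side and a pseudogene without a probe on the other. *Oprk1* had signals of 1613 and 1692 in the DMH and 2060 and 1958 in the VMH, against 983 and 670 in the Arc and 1051 and 614 in the LH. Its 4 DMH and VMH arrays thus lay above its 4 Arc and LH arrays, as they did for *Npbwr1*, but the VMH and not the DMH was highest. The differences of *Oprk1* did not pass the threshold of 0.05 (limma F-test over the nuclei, adjusted p = 0.0669). The closest pairwise differences were Arc minus VMH, -1.31 ± 0.31 (limma, adjusted p = 0.0604), and VMH minus LH, 1.32 ± 0.31 (adjusted p = 0.0613). None of the 7 probes of the neighbours passed the threshold for any pair of nuclei, and at an unadjusted p under 0.05 *Oprk1* passed for 4 of 6 pairs and each other probe for at most 2.

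**Figure D3:**
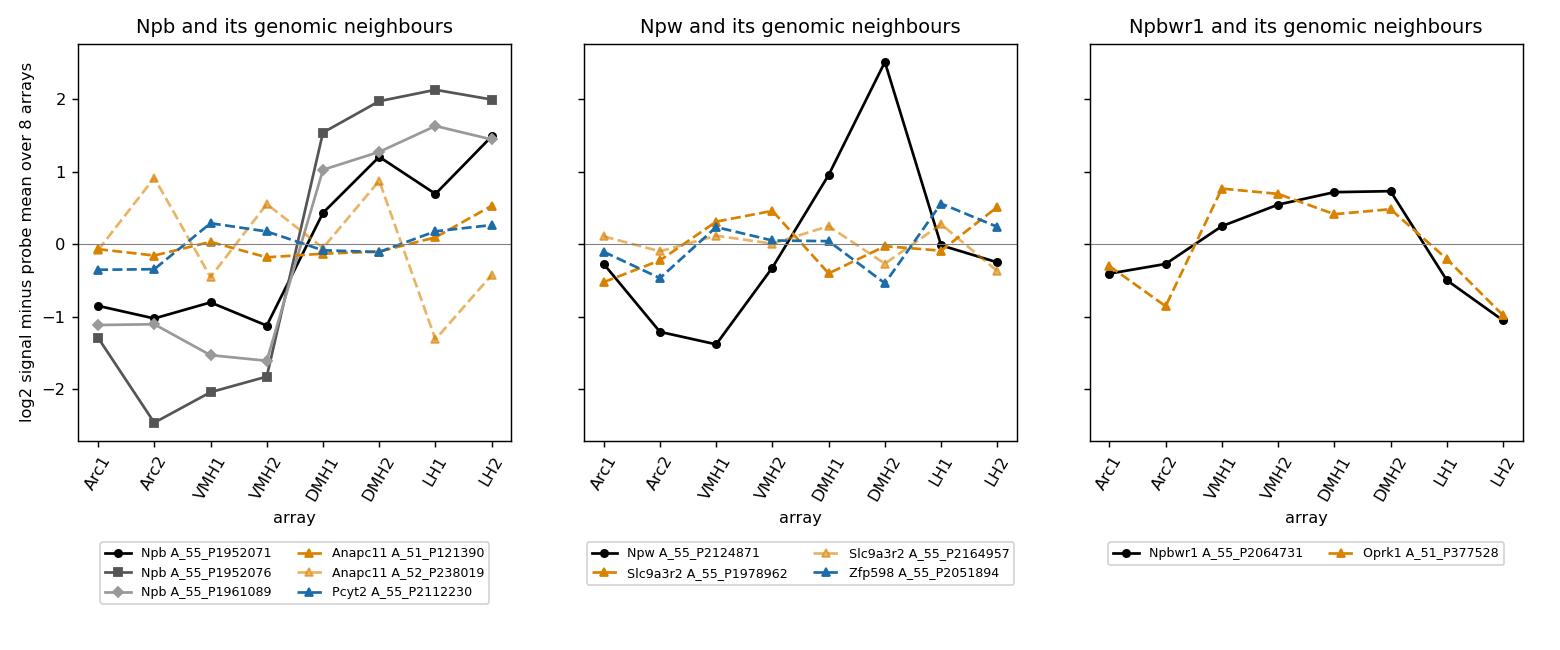
Log2 scaled signal on each of the 8 arrays minus the mean of the probe over the arrays, for *Npb*, *Npw*, and *Npbwr1* (solid black and grey lines) and their nearest genes in the RefSeq table (dashed lines, paler for a second probe of the same gene). The neighbours of *Npb* and *Npw* stay flat or vary without the step between the nuclei, whereas *Oprk1*, beside *Npbwr1*, is above its mean on the VMH and DMH arrays and below it on the Arc and LH arrays.

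Of the 10 genes of somatostatin, opioid, and melanin-concentrating hormone receptors, all tested, 4 differed among the nuclei by the F-test of limma, against 2409 of all 28894 tested probes (8.34%). *Sstr3*, a somatostatin receptor, was highest in the VMH (6362 ± 154) and lowest in the DMH (770 ± 45.9), with VMH minus DMH of 3.05 ± 0.25 (adjusted p = 0.00321), a call made for 317 (1.1%) of all tested probes in this direction. *Oprd1*, the delta opioid receptor, was also highest in the VMH, at 1290 ± 237 (F-test, adjusted p = 0.0197). The somatostatin receptors *Sstr1* and *Sstr2* were highest in the Arc, at 3337 ± 831 and 2833 ± 1037 (F-test, adjusted p = 0.0191 and 0.0244). *Sstr3* still passed in each of the 8 fits that left out 1 array. *Oprd1* passed in 4 of them (adjusted p of up to 0.111, without the second VMH array), *Sstr1* in 2 (up to 0.107, without the second Arc array), and *Sstr2* in 3 (up to 0.117, without the second Arc array). *Sstr2* also missed the threshold without scaling (0.138). *Oprk1*, described above, was the receptor of the 10 with all 4 DMH and VMH arrays above the 4 Arc and LH arrays (1.54% of all tested probes). In none of the 10 did both DMH arrays lie above the other 6, an order of 2.2% of all tested probes, so nothing is read from that. The median of DMH minus LH over the 10 was 0.18, against 0.01 over all tested probes.

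Of 22 tested genes that act after a receptor of the *Npbwr1* kind, 3 (13.6%) passed, against 8.34% of all tested probes. None of the 5 genes of Gi and Go alpha subunits passed the F-test of limma at an adjusted p of 0.05, and *Gnao1* was the only one at an unadjusted p under 0.05. Of the 8 adenylyl cyclases, the enzymes that Gi inhibits, 1 passed. It was *Adcy7*, which was 1644 ± 241 in the DMH and 1567 ± 227 in the LH against 525 ± 42.2 in the Arc and 381 ± 67.5 in the VMH (F-test, adjusted p = 0.00543), the division also seen for *Npb*. Of the 4 G protein-gated potassium channels, *Kcnj5* passed and was highest in the VMH, at 1479 ± 56.5 (adjusted p = 0.0142). Of the 5 tested of 6 receptor kinases and arrestins, *Arrb1*, a beta-arrestin, passed and was lowest in the Arc, at 11546 ± 841 (adjusted p = 0.0126). *Adcy7* passed in all 8 fits that left out 1 array, *Kcnj5* in 3 (adjusted p of up to 0.0951, without the second VMH array), and *Arrb1* in 6 (0.106 and 0.0804 without the first and the second Arc array). The medians of DMH minus LH were 0.03, 0.08, 0.13, and -0.06 for the alpha subunits, cyclases, channels, and kinases with arrestins, against 0.01 over all tested probes.

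Precursors of neuropeptides such as *Npb* and *Npw* are cut and packed by enzymes and granule proteins, 10 of which were tested. *Pcsk1*, a prohormone convertase, was highest in the LH, at 2944 ± 148, and passed the F-test of limma (adjusted p = 0.0140). It was 1265 ± 60.9 in the DMH, where *Npw* was highest, and its difference of DMH minus LH was -1.22 ± 0.19 (adjusted p = 0.0470), a call made for 192 (0.664%) of all tested probes in this direction. *Pcsk2*, another convertase (adjusted p = 0.0495), and *Chga*, the granule protein chromogranin A (adjusted p = 0.0481), passed and were highest in the VMH. *Pcsk1* did not pass without the first or the second VMH array (adjusted p = 0.0665 and 0.0611) or without scaling (0.0973), and *Pcsk2* and *Chga* passed in 1 and 2 of 8 fits that left out 1 array (up to 0.227 without the first Arc array and 0.224 without the first VMH array). *Pcsk2* and *Chga* also missed the threshold with the replicate block (0.0558 and 0.0692), without scaling (0.0800 and 0.0535), with quantile normalization (0.0544 and 0.0664), and without the filter on dim probes (0.102 and 0.0954), and *Pcsk2* with the deposited table (0.0514) and with outlier spots kept (0.0516). No gene of this list had both DMH arrays above the other 6, as *Npw* and 2.2% of all tested probes did, and nothing is read from that in a list of 10. The median of DMH minus LH was -0.46, against 0.01 over all tested probes.

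Other neuropeptide precursors are the peers of *Npb* and *Npw*. Of 26 listed genes, 23 were tested and 17 passed the F-test of limma, which 8.34% of all tested probes did. The highest nucleus was the Arc for 8 of them, the LH for 5, the DMH for 3, and the VMH for 1. Among the 8, *Sst* (F-test, adjusted p = 0.0444) missed the threshold without scaling (0.0550) and without the filter on dim probes (0.0705). Lists of this kind hold genes known for their place in single nuclei, and the marker genes of the nuclei were among them. The smallest adjusted p, 0.000258, was shared by *Agrp* and *Tac2*, highest in the Arc, *Pmch*, highest in the LH, and *Trh*, highest in the DMH. The *Npb* order, with all 4 DMH and LH arrays above the 4 Arc and VMH arrays, was seen for 6 of the 23 and 3.17% of all tested probes. They were *Hcrt*, *Pmch*, *Nts*, *Trh*, *Crh*, and *Penk*, and all 6 passed the F-test, although *Penk* did so in 3 of the 8 fits that left out 1 array (adjusted p of up to 0.0659, without the second VMH array). The median of VMH minus DMH over the 23 genes was -1.82, against 0.02 over all tested probes and -1.78 for *Npb* by A_55_P1952071. *Nts*, *Crh*, *Penk*, and *Sst* were named after their values were seen.

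For *Npb*, DMH minus LH lay between -0.27 and -0.39 by its 3 probes. Of the 6 precursors with the same order, this difference was -0.33 ± 0.27 for *Pmch*, the precursor of melanin-concentrating hormone, 0.17 ± 0.23 for *Penk*, the enkephalin precursor, and 0.28 ± 0.29 for *Trh*. It was -0.90 ± 0.69 for *Crh*, the corticotropin-releasing hormone gene, -1.05 ± 0.41 for *Hcrt*, the orexin precursor, and -2.12 ± 0.52 for *Nts*, the neurotensin precursor, and none of the 6 passed the threshold of limma (adjusted p of 0.139 or more). The *Npw* order, with both DMH arrays above the other 6, was seen for 4 of the 23, *Gal*, *Npvf*, *Grp*, and *Cck*, and for 2.2% of all tested probes. Of these, *Grp*, the gene of gastrin-releasing peptide, passed the F-test of limma (adjusted p = 0.0211; 0.0695, 0.0769, and 0.229 for *Gal*, *Npvf*, and *Cck*) and did so in 2 of the 8 fits that left out 1 array (up to 0.119, without the second DMH array). The authors had chosen *Npvf* and *Grp* from these same arrays for their high DMH signal, so nothing is read from the 4 of 23. *Gal* and *Cck* were named after their values were seen. On the first LH array *Grp* and *Npvf* were 376 and 406 and on the second 32.8 and 29.0, a far wider gap than that of *Npw* (192 and 163).

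**Figure D4:**
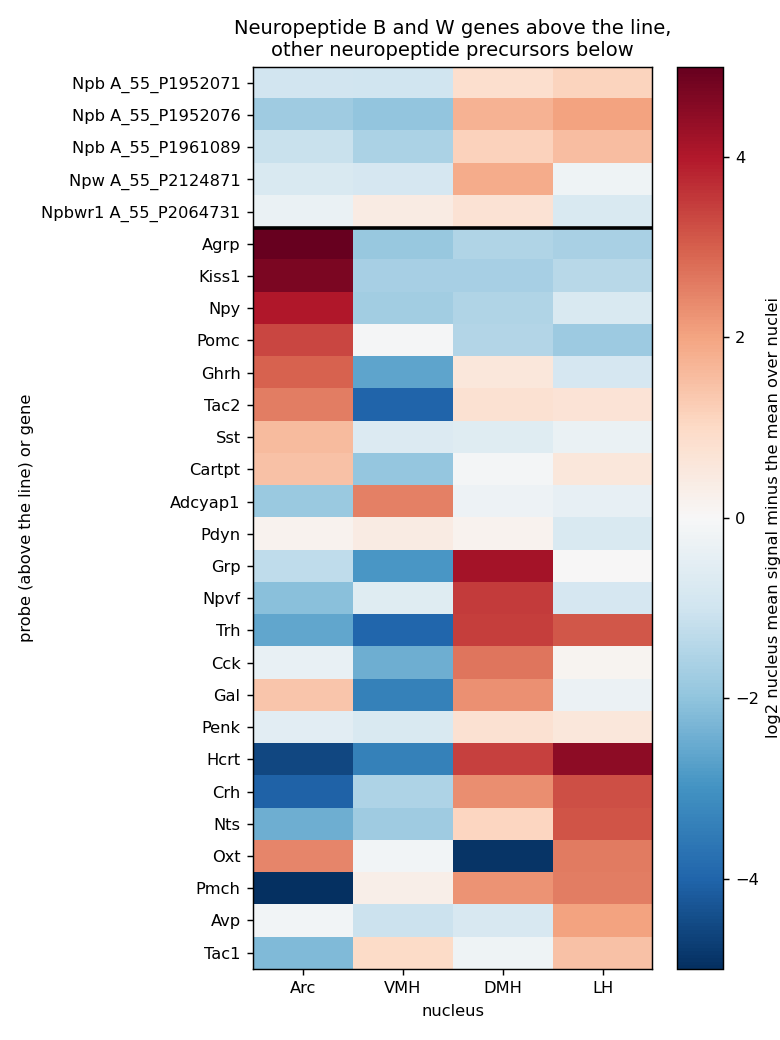
Log2 of the mean scaled signal of each nucleus minus the mean over the 4 nuclei (colour, from blue for low to red for high, limited to 5 in either direction), for the 5 probes of *Npb*, *Npw*, and *Npbwr1* above the line and for the 23 other tested precursor genes below it, sorted by their highest nucleus. *Npb* shares its red DMH and LH cells with *Trh*, *Hcrt*, *Crh*, *Nts*, *Pmch*, and *Penk*, and the spans of *Npb*, *Npw*, and *Npbwr1* are small beside those of *Agrp*, *Hcrt*, and *Pmch*.

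Every alternative that gave a value left *Npb* highest in the LH or the DMH, and *Npw* and *Npbwr1* above the mean of the other 3 nuclei in the DMH. The excess of the LH over the mean of the other 3 nuclei was 1.45 for *Npb* by A_55_P1952071, with a range of 0.87 to 1.85 over 17 alternatives, 2.75 by A_55_P1952076 (1.23 to 2.94 over 16), and 2.05 by A_55_P1961089 (1.08 to 2.14 over 16). The values of the last 2 probes rest on Arc and VMH signals not well above background and were 1.87 and 1.84 with those signals raised to the lowest one measured. The excess of the DMH was 2.31 for *Npw* (1.29 to 3.09 over 16) and 0.96 for *Npbwr1* (0.61 to 1.30 over 17).

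**Figure D5:**
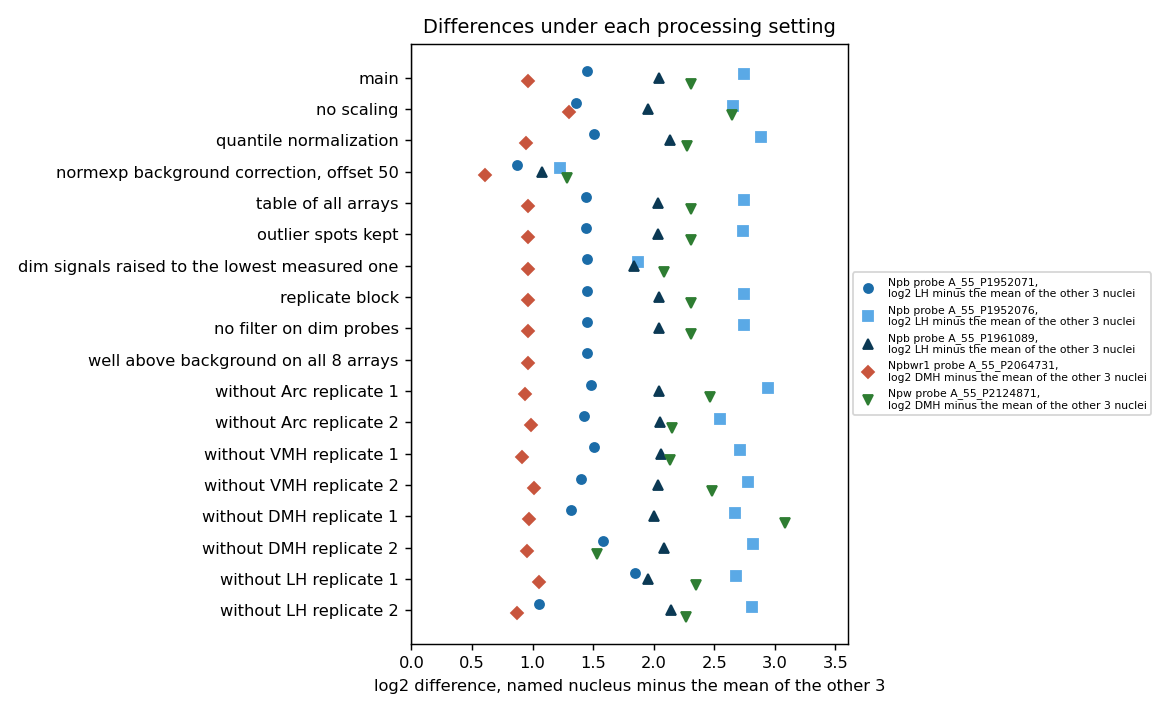
Log2 difference of the named nucleus minus the mean of the other 3 nuclei for each of the 5 probes (symbols) under the processing used here and each alternative (rows). All points lie above 0, the background correction by normexp gives the smallest value for each of the 5 probes, and *Npw* moves to 1.53 and 3.09 when 1 DMH array is left out.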

How the data were processed

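*Npb*, *Npw*, and *Npbwr1* were followed on 8 one-color Agilent arrays, grouped by their labels, 2 for each of 4 nuclei. The authors deposited a processed intensity for every spot, with the background subtracted and without scaling between arrays, as Agilent Feature Extraction gave it. The file headers name version 10.7.3.1 and the submitters' notes 11.5.1.1. Cy3 is the dye in the labels and Cy5 that in the methods, while the red channel was deposited. The members and the gene lists were chosen with earlier results of these data known.

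Without outlier spots, the remaining ones were averaged per probe, scaled by the 75th percentile of the array (the 8 divisors rescaled to a geometric mean of 1), and put on the log2 scale. A model with 1 mean per nucleus was run on the 28894 probes that both arrays of some nucleus measured well above background (limma 3.58.1 in R 4.3.3, 4 residual degrees of freedom), and p-values of the F-test and of each pairwise difference were adjusted over all of them by the method of Benjamini and Hochberg, with a threshold of 0.05. The SE given for the 3 genes come from this fit. A listed gene was represented by its tested probe with the highest mean. Named were all probes of the 3 genes, their nearest genes, the 5 probes most like each (1 of which is not reported here), the markers of the nuclei, and up to 4 genes per list with the smallest adjusted p past the F-test. RefSeq names were found for 26762 of 28390 accessioned probes (94.3%), with assembly GRCm38.p6 used for names and neighbours. The code was tested on simulated data. Alternatives changed the scaling, background correction, filters, deposited table, outlier spots, floor, replicate block, and arrays included. Where they keep a probe, the filters and the replicate block change the SE of its differences but not the differences. The number of arrays limits the precision.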

Additional observations from a re-analysis of the deposited data

How the results depend on the processing

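No difference between the highest nucleus and the mean of the other 3 changed sign. With normexp (offset 50), these log2 differences were 0.87, 1.23, and 1.08 for *Npb* by A_55_P1952071, A_55_P1952076, and A_55_P1961089 (main values 1.45, 2.75, and 2.05), 1.29 for *Npw* (2.31), and 0.61 for *Npbwr1* (0.96). With every dim signal set to the lowest one measured, A_55_P1952076 gave 1.87 and A_55_P1961089 gave 1.84, and without scaling *Npbwr1* gave 1.30. Leaving out each array in turn gave 1.05 to 1.85, 2.55 to 2.94, and 1.95 to 2.14 for the *Npb* probes, 1.53 to 3.09 for *Npw* (without the second and the first DMH array), and 0.87 to 1.05 for *Npbwr1*. It gave 898 to 3650 probes that differed among the nuclei (2409 with all arrays), lowest without the first Arc array and highest without the second LH array, and 17 to 33 listed genes (27), lowest without either VMH array. A filter on all 8 arrays left no value for *Npw* and for 2 of 3 *Npb* probes.

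The replicate number coincides with the row of the slide, and the deviations of same-numbered arrays correlated between -0.03 and 0.26, so the numbers were not taken to pair the samples. With the replicate number as a block, 2081 probes and 25 listed genes differed (*Pcsk2* and *Chga* no longer passed). The differences of the 3 genes kept their values (1.45, 2.75, 2.05, 2.31, and 0.96), which this block cannot change because every nucleus had both replicate numbers. Signals near the background limit *Npb* and *Npw* in the Arc and the VMH.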
